A study of Mus musculus with 5 samples.

Results

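The small leucine-rich proteoglycans are 10 matrix genes here, Dcn, Bgn, Lum, Fmod, Ogn, Aspn, Prelp, Optc, Kera and Epyc, matched by symbol among the 21259 cellular genes of the deposited table. All 10 were found, 8 had enough reads to be tested, and 2 had no read in any library. NIH3T3, a widely used fibroblast line of mouse origin, was the host in both groups. All cells stably expressed a dCas9-based CRISPR activator, in which a Cas9 that no longer cuts is led by guide RNA (sgRNA) to a promoter and raises its transcription. In 3 libraries the cells had been transfected with plasmids encoding sgRNA directed at the LINE-1 promoter, and in 2 libraries with scramble sgRNA plasmids. RNA was taken 48 h after transfection. The labels do not say whether the activator line is a clone or whether replicates were separate transfections, so the p-values given here rest on the spread among libraries alone, and that spread may be technical.

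Small leucine-rich proteoglycans are secreted proteins built around a curved stack of leucine-rich repeats, most of them carrying chondroitin, dermatan or keratan sulfate chains. They bind collagen fibrils and set fibril diameter and spacing in connective tissue, and several also bind growth factors and cell surface receptors. Decorin (Dcn), biglycan (Bgn) and asporin (Aspn) form class I. Lumican (Lum), fibromodulin (Fmod), prolargin (Prelp) and keratocan (Kera) belong to class II, and osteoglycin (Ogn), opticin (Optc) and epiphycan (Epyc) to class III. Fibroblasts are a main source of decorin, biglycan and lumican, while keratocan is best known from the cornea and epiphycan from cartilage.

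Most members lie in 3 gene clusters. On GRCm38 with GENCODE release M 21, Optc (chromosome 1, 133897199 to 133907999), Prelp (133910304 to 133921414) and Fmod (134037254 to 134048277) are neighbours. Dcn (chromosome 10, 97479609 to 97518143), Lum (97565128 to 97572703), Kera (97606879 to 97613692) and Epyc (97644068 to 97682454) follow each other on 1 strand. Aspn (chromosome 13, 49544443 to 49567565) and Ogn (49608046 to 49624501) lie inside the span of Cenpp, a centromere protein gene read from the other strand. Aspn shares 7 exonic bases with Cenpp and Ogn shares 0, so few exonic reads could be confused between them. Optc and Prelp overlap the antisense RNA gene Gm15851, and Epyc overlaps the lincRNA gene Gm10754. Strand use is not stated, so reads of overlapping genes cannot be told apart. Bgn stands alone on chromosome X (73483602 to 73495933).

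Some genes of the chromosome 1 trio and the chromosome 13 pair passed the threshold given below and others did not. Between Ogn and Aspn, and between Prelp and Fmod, a difference in change was not shown. The sequences just before the annotated starts of these genes and of Bgn are printed here. They are RefSeq windows on GRCm38.p6, the 250 bases before each start, written 5′ to 3′ on the gene's strand, with motif matches in capitals. The windows are chr1:133908000-133908249 (minus strand) for Optc, chr1:133921402-133921651 (minus) for Prelp and chr1:134037004-134037253 (plus) for Fmod. They are chr13:49607765-49608014 (plus) for Ogn, chr13:49544193-49544442 (plus) for Aspn and chrX:73483351-73483600 (plus) for Bgn. The last 13 bases of the Prelp window are exonic in GENCODE.
Optc: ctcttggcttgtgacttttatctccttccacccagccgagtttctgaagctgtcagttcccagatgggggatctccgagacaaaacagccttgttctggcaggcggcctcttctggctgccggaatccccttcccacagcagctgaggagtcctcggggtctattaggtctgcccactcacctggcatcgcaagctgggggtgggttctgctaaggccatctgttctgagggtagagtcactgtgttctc
Prelp: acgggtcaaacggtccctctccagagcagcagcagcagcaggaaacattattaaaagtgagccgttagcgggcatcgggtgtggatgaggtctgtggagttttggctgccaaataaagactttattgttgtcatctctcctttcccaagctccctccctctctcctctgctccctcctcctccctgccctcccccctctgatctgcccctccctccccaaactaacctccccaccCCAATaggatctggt
Fmod: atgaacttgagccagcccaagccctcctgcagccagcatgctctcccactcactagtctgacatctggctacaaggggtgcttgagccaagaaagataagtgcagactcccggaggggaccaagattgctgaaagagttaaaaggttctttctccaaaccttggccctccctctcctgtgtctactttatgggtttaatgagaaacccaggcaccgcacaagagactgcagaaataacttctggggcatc
Ogn: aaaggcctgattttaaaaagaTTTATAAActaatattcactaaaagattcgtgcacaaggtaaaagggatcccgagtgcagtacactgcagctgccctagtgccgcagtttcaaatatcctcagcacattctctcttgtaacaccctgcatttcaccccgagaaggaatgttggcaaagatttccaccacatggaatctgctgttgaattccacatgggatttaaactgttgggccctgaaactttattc
Aspn: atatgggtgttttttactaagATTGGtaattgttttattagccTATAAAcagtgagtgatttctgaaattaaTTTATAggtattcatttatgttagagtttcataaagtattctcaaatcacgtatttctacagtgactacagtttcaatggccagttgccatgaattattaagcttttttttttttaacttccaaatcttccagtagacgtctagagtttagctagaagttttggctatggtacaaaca
Bgn: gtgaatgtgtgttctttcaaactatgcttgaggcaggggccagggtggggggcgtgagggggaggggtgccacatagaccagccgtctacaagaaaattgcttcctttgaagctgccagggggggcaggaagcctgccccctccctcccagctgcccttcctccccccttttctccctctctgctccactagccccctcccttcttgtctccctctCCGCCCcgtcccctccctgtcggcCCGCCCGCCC

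The motifs searched on both strands were the TATA box (TATAAA), the CCAAT box (those letters), the GC box (GGGCGG), the AP-1 site (TGANTCA) and the STAT site (TTCNNNGAA). Of 32851 mouse windows of this length, 12.4% held the TATA box, 33.8% the CCAAT box, 32.7% the GC box, 6.75% the AP-1 letters and 7.02% the STAT letters. Bgn, the most abundant member, held 3 GC boxes, starting 34, 10 and 6 bases before the start, the last 2 of them overlapping, and 64.4% of its bases were G or C. Aspn held 2 TATA matches, 207 and 178 bases before the start, and 1 CCAAT box on the other strand at 229. Ogn held 2 overlapping TATA matches at 229 and 227, and Prelp 1 CCAAT box at 15. Optc and Fmod held none of these motifs, and no printed window held the AP-1 or STAT letters. These are matches of letters, not measured binding.

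The libraries held 30681384 to 45596490 recovered reads in the gene table, and all values were whole multiples of 1 read. The LINE-1 target was checked in the repeat table, which was fitted in the same way. Of its 25 tested L1Md names, which are mouse LINE-1 repeats, 8 were called higher and 0 lower, where 9.39% of all tested repeat names were called higher and 3.02% lower. L1MdTf_I, for example, had 655, 717 and 643 normalized reads in LINE-1 sgRNA libraries, against 329 and 313 in scramble libraries. L1MdGf_I was similar in every library, with 671, 730 and 654 against 343 and 335, as was L1MdA_I. Calls of such names may therefore count the same reads and are not separate results. Far more abundant names did not pass, such as L1MdF_V, with 38131 to 46174 in LINE-1 sgRNA and 45966 to 48925 in scramble libraries. The summed L1Md signal overlapped between the groups, at 262724 to 305366 in LINE-1 sgRNA and 304971 to 321593 in scramble libraries. Fibroblast markers were read in every library: 10 of 10 were tested, with a summed level of 519397 to 543605 in LINE-1 sgRNA and 755956 to 808339 in scramble libraries. Of these 10 markers 9 passed as lower and 0 as higher, where 25.4% of all tested genes passed as lower and 18.2% as higher. The fall of the proteoglycans described next thus went with a fall of the fibroblast list, which includes collagen genes. The part of that list in the result was not tested. In bulk RNA, fewer cells of a type and less RNA per cell cannot be told apart.

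With LINE-1 sgRNA, 6 of the 8 tested members passed as lower and 0 as higher: Optc, Lum, Dcn, Ogn, Prelp and Bgn. Over all 14337 tested genes 43.5% passed in either direction, 25.4% as lower and 18.2% as higher. The members and gene lists were chosen with earlier results of these data known. Their counts beside these shares therefore do not test for an excess. Aspn and Fmod did not pass, and Kera and Epyc had no read. Every change is given as log2 of LINE-1 sgRNA over scramble, computed on the normalized read count plus 1 and tested with limma and adjusted by Benjamini-Hochberg over all tested genes, with 0.05 as the threshold. The 6 that passed were also the 6 whose libraries did not overlap between the groups, and for 37.2% of all tested genes the LINE-1 sgRNA libraries all lay below both scramble libraries. The median change was -0.56 over the 8 tested members and -0.06 over all tested genes. Of the calls over all genes, 41.7% were higher, against 53.2% after TMM rescaling and 60.6% with libraries scaled to equal totals, and the same count of 6 members passed as lower under both scalings.

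**Figure D1:**
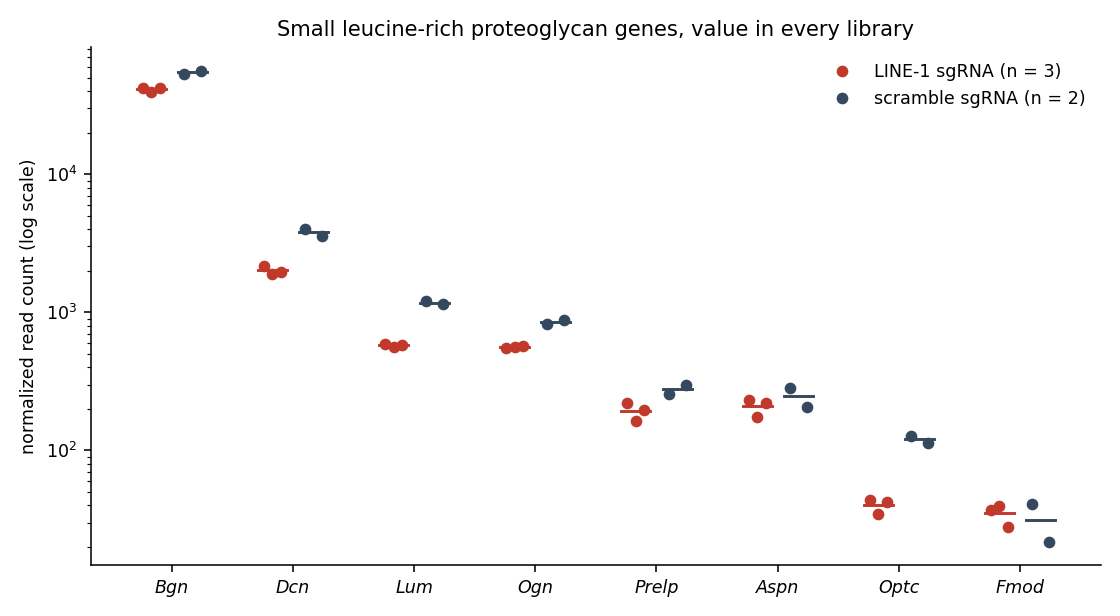
Normalized read counts on a log axis for the 8 members with reads, with a point for each library and a bar at the group mean, LINE-1 sgRNA (n = 3) left of scramble sgRNA (n = 2). The groups are apart for Bgn, Dcn, Lum, Ogn, Prelp and Optc and overlap for Aspn and Fmod; Kera and Epyc are at 0 and not drawn.

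Class I held the most abundant member and the only class I gene that did not pass. Decorin binds collagen and transforming growth factor beta and is a ligand of the EGF and Met receptors. Dcn had 2167, 1903 and 1955 normalized reads in LINE-1 sgRNA libraries, against 4031 and 3561 in scramble libraries. Every LINE-1 sgRNA library lay well below both scramble libraries. The mean was 2009 ± 139.97 with LINE-1 sgRNA and 3796 ± 333 with scramble (SD, n = 3 and 2), a change of -0.92 (SE 0.069, adjusted p = 1.0e-08 in limma).

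Biglycan is the close relative of decorin that can also act on Toll-like receptors once released from the matrix. Bgn had 41912, 39280 and 42095 normalized reads with LINE-1 sgRNA, against 53449 and 55949 with scramble. The groups were apart, with a gap larger than the spread inside either group. The means were 41095 ± 1575 and 54699 ± 1768 in LINE-1 sgRNA and scramble libraries (SD, n = 3 and 2), a change of -0.41 (SE 0.063, adjusted p = 5.0e-05 in limma).

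Asporin, a class I protein with a run of aspartates in place of a glycosaminoglycan chain near its amino end, binds collagen and transforming growth factor beta. Aspn had 233, 174 and 221 normalized reads with LINE-1 sgRNA, against 285 and 207 with scramble, so the groups overlapped. The change of -0.23 (SE 0.16, adjusted p = 0.27 in limma) was within the spread between libraries and rested on the scramble pair, whose values were far apart: it was 0.003 without scramble library 1 and -0.45 (adjusted p = 0.057) without scramble library 2.

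In class II, Lum and Prelp passed as lower and Fmod did not pass. Lumican carries keratan sulfate in the cornea and holds collagen fibrils at even spacing there. Lum had 585, 560 and 585 normalized reads with LINE-1 sgRNA, against 1202 and 1142 with scramble. The LINE-1 sgRNA libraries were close to each other and far below both scramble libraries. The means were 576 ± 14.5 and 1172 ± 42.9 in LINE-1 sgRNA and scramble libraries (SD, n = 3 and 2), with a change of -1.02 (SE 0.078, adjusted p = 1.3e-08 in limma).

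Prolargin is a basic member that binds heparan sulfate as well as collagen. Prelp had 221, 163 and 197 normalized reads with LINE-1 sgRNA, against 258 and 298 with scramble. The groups did not overlap, but the highest LINE-1 sgRNA library was near the lowest scramble library. The change was -0.53 (SE 0.15, adjusted p = 0.0074 in limma). It had the highest adjusted p of the 6 calls and did not pass without scramble library 2 (-0.42, adjusted p = 0.079) or without the variance trend (adjusted p = 0.056).

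Fibromodulin binds collagen and the crosslinking enzyme lysyl oxidase. Fmod was scarce, with 37.0, 39.9 and 28.0 normalized reads in LINE-1 sgRNA libraries and 40.7 and 21.8 in scramble libraries. These came from 48, 59 and 32 recovered reads with LINE-1 sgRNA and 38 and 24 with scramble. Exact 95% Poisson intervals, which cover counting error only, ran from 26.9 to 52.2 reads for scramble library 1 and from 15.4 to 35.7 for scramble library 2. The change of 0.21 (SE 0.31, adjusted p = 0.62 in limma) did not pass. It rested on the scramble pair: it was 0.64 (adjusted p = 0.16) without scramble library 1 and -0.23 (adjusted p = 0.62) without scramble library 2.

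Class III held the largest fall. Opticin is a glycoprotein known from the vitreous of the eye, where it binds collagen fibrils. Optc had 44.0, 34.5 and 42.0 normalized reads with LINE-1 sgRNA, against 127 and 113 with scramble. The highest LINE-1 sgRNA library was far below the lowest scramble library. Behind these stood 57, 51 and 48 recovered reads with LINE-1 sgRNA and 119 and 124 with scramble, with exact 95% Poisson intervals between 35.4 and 73.9 reads with LINE-1 sgRNA and between 98.6 and 147.8 with scramble. The change was -1.56 (SE 0.22, adjusted p = 1.7e-05 in limma), the 4th lowest of 14337 tested genes, while Lum and Dcn ranked 74th and 115th.

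Osteoglycin, also called mimecan, is found in bone, cornea and vessel wall and takes part in collagen fibril assembly. Ogn had 553, 561 and 570 normalized reads with LINE-1 sgRNA, against 819 and 886 with scramble. The LINE-1 sgRNA libraries were nearly equal and all below the scramble libraries. The change was -0.60 (SE 0.083, adjusted p = 1.6e-05 in limma).

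Kera and Epyc had no read in any library, although they lie directly beyond Lum in the same cluster. The exact 95% Poisson interval of a count of 0 reaches 3.69 reads. The floor of 3 reads used for a count of 0 is 2.03 to 2.63 normalized reads in LINE-1 sgRNA libraries and 2.73 to 3.21 in scramble libraries. No change could be given for either gene.

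**Figure D2:**
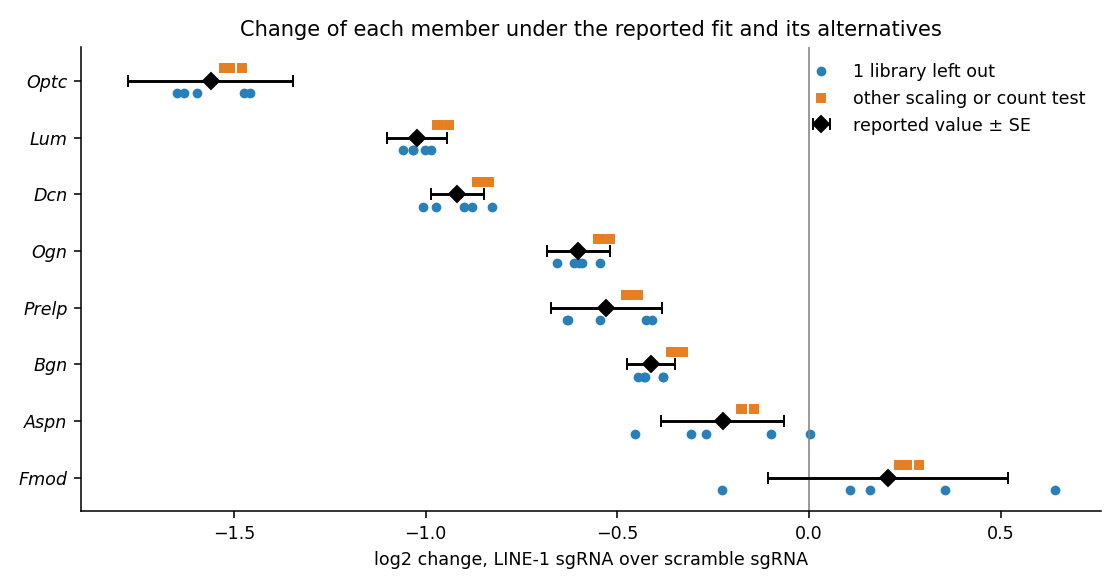
Change of each tested member in log2 units, LINE-1 sgRNA over scramble sgRNA, with the reported value and its SE (diamond), the values with 1 library left out (circles) and the values under other scalings or count tests (squares). Optc is lowest at -1.56 and Fmod highest at 0.21; Aspn and Fmod are the members whose points reach both sides of 0.

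Levels between members were compared per kilobase of merged annotated exon. Bgn was far above the rest, at 6738 normalized reads per kilobase with LINE-1 sgRNA and 8968 with scramble on average. Mean levels per kilobase with LINE-1 sgRNA were 344 for Dcn, 235 for Lum, 219 for Ogn, 88.9 for Aspn, 53.5 for Prelp, 15.6 for Optc and 10.6 for Fmod. Mean levels per kilobase with scramble were 650 for Dcn, 479 for Lum, 332 for Ogn, 105 for Aspn, 76.9 for Prelp, 46.6 for Optc and 9.45 for Fmod. The ranking was the same in both groups. Neighbours in this ranking did not overlap within either group: Lum, for example, had 229 to 239 with LINE-1 sgRNA where Ogn had 216 to 222, and Optc had 13.4 to 17.1 where Fmod had 8.47 to 12.1. Optc and Fmod were close with LINE-1 sgRNA and far apart with scramble, where Optc had 43.8 to 49.5 and Fmod 6.60 to 12.3. The length used covers all annotated exons, which may differ from the transcripts expressed, and is the same in every library. Lack of overlap therefore does not cover error in length, and the order of close members such as Lum and Ogn is uncertain.

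The summed normalized reads of the family were 44720 ± 1736 with LINE-1 sgRNA and 61195 ± 1389 with scramble (SD, n = 3 and 2), a difference of -26.9%. Without Bgn the sums were 3624 ± 204 and 6496 ± 378 in LINE-1 sgRNA and scramble libraries, a difference of -44.2%. These sums describe chosen genes and carry no test. Shares of the family sum do not depend on the scaling between libraries. Bgn made up 91.6 to 92.1% of the sum in LINE-1 sgRNA libraries and 88.8 to 90.0% in scramble libraries. Dcn held 4.28 to 4.74% with LINE-1 sgRNA and 5.73 to 6.69% with scramble, and Lum 1.28 to 1.31% with LINE-1 sgRNA and 1.84 to 1.997% with scramble. The share of Ogn was 1.21 to 1.31% with LINE-1 sgRNA and 1.36 to 1.43% with scramble, and that of Optc 0.0807 to 0.0961% with LINE-1 sgRNA and 0.181 to 0.212% with scramble, again apart. The shares of Aspn, Prelp and Fmod overlapped between the groups.

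Whether members differed from each other in their change was tested on the log2 ratio within each library, for 4 pairs of members from the same cluster and for Dcn against Bgn, 5 pairs chosen after the members' values were seen. A two-sided exact permutation test of 3 against 2 libraries allows no p below 0.1, so no pair could reach 0.05. The ratio of Optc to Prelp was -2.24 ± 0.055 with LINE-1 sgRNA and -1.20 ± 0.27 with scramble (SD, n = 3 and 2; exact p = 0.1, adjusted over 5 pairs 0.25). Its libraries did not overlap, so Optc was lower relative to its neighbour in every LINE-1 sgRNA library. Likewise Dcn to Bgn was -4.36 ± 0.078 with LINE-1 sgRNA and -3.85 ± 0.17 with scramble, with no overlap (exact p = 0.1, adjusted 0.25). The other ratios overlapped between the groups. Lum to Dcn differed by -0.11, Ogn to Aspn by -0.38 and Prelp to Fmod by -0.74, LINE-1 sgRNA minus scramble (exact p = 0.3 and adjusted 0.3 for each). Dcn and Lum, which are adjacent on chromosome 10, had changes whose difference was within the spread between libraries, and a difference between Fmod and Prelp was not shown.

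**Figure D3:**
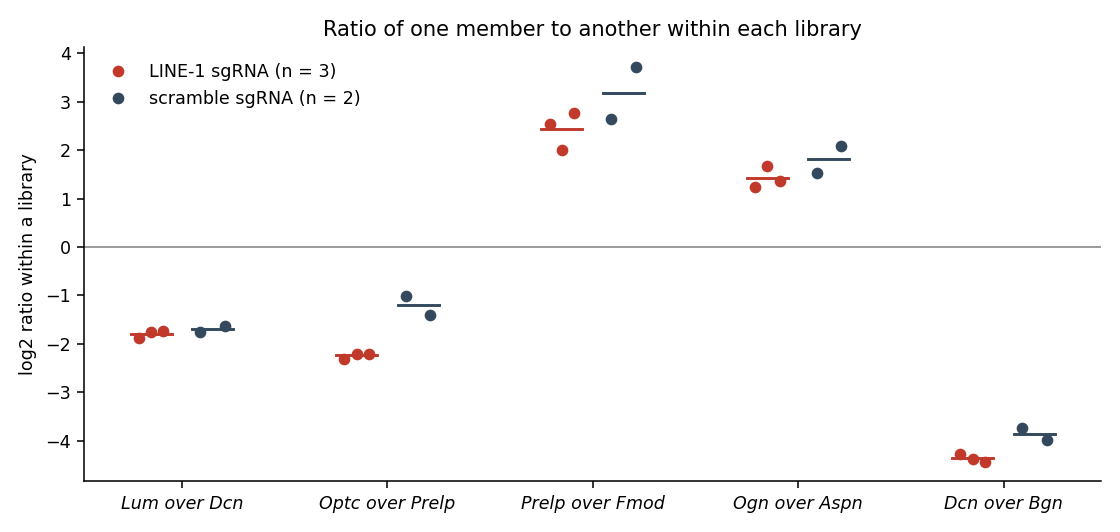
Log2 ratio of one member to another within each library for 5 pairs, with a point for each library and a bar at the group mean, LINE-1 sgRNA (n = 3) left of scramble sgRNA (n = 2). The groups are apart for Optc over Prelp and for Dcn over Bgn, and overlap for the other 3 pairs.

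On chromosomes 1, 13 and X, called genes around the members went in both directions. The chromosome 10 cluster of Dcn and Lum had no tested neighbour, so nothing can be said there. Within 500 kb of a member the table holds 72 other genes, of which 46 were tested, with 8 higher and 13 lower and a median change of -0.09. Over all tested genes the corresponding shares were 18.2% higher and 25.4% lower. Around the chromosome 1 trio 3 were higher and 4 lower of 15 tested. The antiproliferative gene Btg2, 26893 bases from Fmod, had 702, 682 and 802 normalized reads with LINE-1 sgRNA, against 1255 and 1135 with scramble (-0.72, adjusted p = 3.4e-06). The chitinase gene Chit1, 62965 bases from Fmod, had 18.5, 39.9 and 35.0 normalized reads with LINE-1 sgRNA, against 2.14 and 1.82 with scramble (3.36, adjusted p = 1.2e-05), the scramble values being 2 reads each. The calcium pump gene Atp2b4 (-0.52), Rabif (-0.36) and the spliceosome gene Snrpe (-0.23) were the other falls, and Mybph (1.84) and Cyb5r1 (0.33) the other rises. Mybph was scarce, with 4.28 and 10.9 normalized reads in scramble libraries. It overlaps Adora1 on the other strand, so its reads are uncertain in the overlap.

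On chromosome 13, 3 of 11 tested neighbours were higher and 3 lower. Cenpp, which spans Aspn and Ogn, fell by 0.24, with 1708, 1824 and 1747 normalized reads with LINE-1 sgRNA against 2102 and 2065 with scramble (adjusted p = 0.0033 in limma). Fgd3 (-0.36) and the isoleucyl-tRNA synthetase gene Iars (-0.16) were the other falls, and Bicd2 (0.19), Ninj1 (0.79) and the kinase gene Wnk2 (2.81, with 1.07 and 5.45 normalized reads in scramble libraries) rose. Fold sizes of Chit1, Mybph and Wnk2 are therefore uncertain. The family relatives Omd, which encodes osteomodulin, and Ecm2 lie between or beside Aspn and Ogn and did not pass. Omd had 47.8, 44.6 and 49.0 normalized reads with LINE-1 sgRNA and 67.5 and 52.7 with scramble (-0.33, adjusted p = 0.26). Around Bgn, 2 of 20 tested genes were higher, Haus7 (0.79) and the creatine transporter gene Slc6a8 (0.19), and 6 lower, Naa10 (-0.48), Arhgap4 (-0.44), Dusp9 (-0.38), Pdzd4 (-0.35), Idh3g (-0.25) and Ssr4 (-0.23). Naa10 and Arhgap4 overlap on the same strand and had similar values in every library, so these 2 falls may count the same reads. The chromosome 10 cluster had 1 neighbour in the table, Ccer1, with no read. Of these 21 calls 8 were lost under at least 1 alternative: Bicd2, Cenpp, Dusp9, Fgd3, Iars, Slc6a8, Snrpe and Ssr4.

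**Figure D4:**
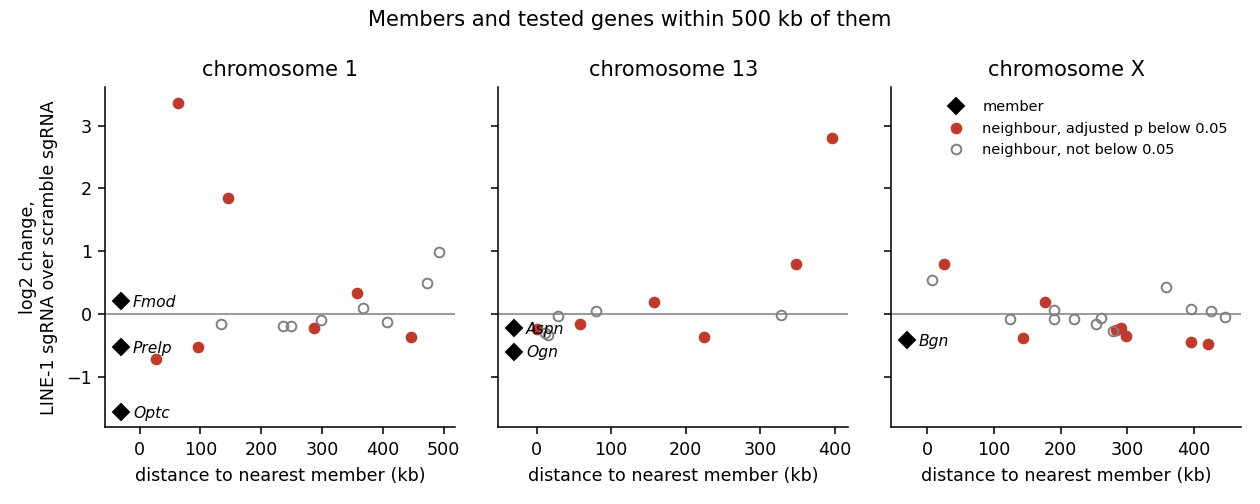
Log2 change, LINE-1 sgRNA over scramble sgRNA, against the distance in kb to the nearest member for the tested genes within 500 kb on chromosomes 1, 13 and X. Members are diamonds, set left of 0 so that they can be read; neighbours lie on both sides of 0, from -0.72 for Btg2 to 3.36 for Chit1.

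Related leucine-rich repeat matrix genes outside the 10 mostly did not pass. Of 9 genes 7 were tested, with 2 lower and 0 higher, and a median change of -0.33. The share called lower over all tested genes was 25.4%, and 18.2% were called higher. Podocan (Podn) had 1634 ± 127 normalized reads with LINE-1 sgRNA and 2064 ± 44.4 with scramble (-0.34, adjusted p = 7.1e-04), though Podn overlaps Scp2 and reads in the overlap cannot be assigned without strand. Tsukushi (Tsku), an inhibitor of bone morphogenetic protein signalling, had 805 ± 56.0 and 1040 ± 0.822 in LINE-1 sgRNA and scramble libraries (-0.37, adjusted p = 0.0011). In 6 of the 7 every LINE-1 sgRNA library lay below both scramble libraries, as did 37.2% of all tested genes.

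Collagens, the main ligands of the family, passed in all 14 tested cases in the reported fit, 11 lower and 3 higher, with a median of -0.55. The shares over all tested genes were 25.4% lower and 18.2% higher. The count of 11 lower was 10 with TMM rescaling, in edgeR, in DESeq2 and without LINE-1 sgRNA library 3. It was 9 with table totals, without the variance trend and without LINE-1 sgRNA library 1. Col1a1, a chain of type I collagen, had 86146 ± 2958 normalized reads with LINE-1 sgRNA and 139610 ± 3142 with scramble (-0.70, adjusted p = 6.2e-07). Col3a1 (-0.60) and Col6a2 (-0.61) fell as well. The 3 rises were Col2a1, the cartilage collagen (1.83, 170 ± 17.5 with LINE-1 sgRNA and 46.7 ± 0.868 with scramble), Col11a2 (0.97) and Col5a3 (0.39). Col2a1 is also 1 of 8 cartilage and tendon markers, of which 5 were tested, with 1 higher and 1 lower (Sox9).

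The enzymes that build glycosaminoglycan chains moved in both directions. Of 12 genes of the linker region and of sulfate and sugar supply, 4 were lower and 0 higher, with a median of -0.11. Among all tested genes 25.4% were lower and 18.2% higher. Papss1, which makes the sulfate donor, had 3483 ± 60.8 normalized reads with LINE-1 sgRNA and 4996 ± 24.3 with scramble (-0.52, adjusted p = 3.7e-07), and Ugdh, which makes UDP-glucuronate, had -0.34. Xylt1, which starts the chain, had 8.64 ± 1.96 normalized reads with LINE-1 sgRNA and 26.4 ± 6.53 with scramble (-1.51, adjusted p = 0.0056, but 0.058 without scramble library 1), and Slc35b2, the sulfate donor transporter, had -0.21. The abundant paralog Xylt2 had 1621 ± 73.0 and 1537 ± 89.2 in LINE-1 sgRNA and scramble libraries and did not pass (adjusted p = 0.37).

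Of 13 tested chondroitin and dermatan sulfate genes 3 were higher and 6 lower, with a median of -0.11. Beside this list and the keratan sulfate list below stand shares of 18.2% higher and 25.4% lower over all tested genes. Chst3, a chondroitin 6-sulfotransferase, rose to 1126 ± 36.2 normalized reads with LINE-1 sgRNA, against 179 ± 14.8 with scramble (2.65, adjusted p = 2.9e-13), and Chst7, another chondroitin 6-sulfotransferase gene, had 0.38. The chain-starting enzymes went apart, Csgalnact1 being lower (-0.72, 962 ± 53.1 with LINE-1 sgRNA and 1589 ± 39.0 with scramble) and Csgalnact2 higher (0.38). Dse, the epimerase that turns chondroitin into dermatan sulfate (-0.46), and the uronyl 2-sulfotransferase gene Ust (-0.65) fell. Of 6 tested keratan sulfate genes 2 were higher and 1 lower, with a median of -0.03: B3gnt2 (0.18), Chst5 (1.32, at 14.0 ± 2.02 normalized reads with LINE-1 sgRNA and 5.65 ± 4.13 with scramble) and Fut8 (-0.34). The count of 2 higher is unstable. It was 0 without the variance trend, without each LINE-1 sgRNA library in turn and without scramble library 2. It was 1 without scramble library 1, with a pseudocount of 8, with a mean of at least 50 and in DESeq2.

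Other proteoglycans were mixed, with 4 higher and 8 lower of 21 tested and a median of -0.07. Among all tested genes 18.2% were higher and 25.4% lower. Vcan, the large chondroitin sulfate proteoglycan versican, had 12837 ± 785 normalized reads with LINE-1 sgRNA and 21087 ± 2905 with scramble (-0.71, adjusted p = 6.1e-07). Tgfbr3, the betaglycan coreceptor (-0.88), and the syndecan Sdc4 (-0.56) also fell, while the syndecan Sdc3 rose to 2426 ± 33.2 with LINE-1 sgRNA, against 1225 ± 20.6 with scramble (0.98, adjusted p = 4.9e-10).

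Among 13 tested receptors and growth factors that bind members of the family, 2 were higher and 8 lower, with a median of -0.35. Wisp1, a matricellular protein that binds decorin and biglycan, had 9070 ± 203 normalized reads with LINE-1 sgRNA and 3007 ± 306 with scramble (1.60, adjusted p = 9.8e-13). Tgfb1, bound by decorin, had 4038 ± 178 with LINE-1 sgRNA and 2248 ± 67.1 with scramble (0.84), while Tgfb3 (-0.44) and the receptor gene Igf1r (-0.36) fell. Tgfb3 overlaps Ttll5, so its reads are uncertain in the overlap. Of 9 tested enzymes that process or cleave family members or crosslink their collagen, 2 were higher and 6 lower, with a median of -0.39. Lox, the lysyl oxidase gene, had 32769 ± 656 with LINE-1 sgRNA and 56416 ± 2181 with scramble (-0.78, adjusted p = 1.4e-08). The aggrecanase gene Adamts5 was lower (-0.83), and the collagenase gene Mmp13 was higher (2.78, 138 ± 4.91 with LINE-1 sgRNA and 20.2 ± 9.29 with scramble). Over all these lists 16 of 95 tested genes were higher and 46 lower, where 18.2% of all tested genes were higher and 25.4% lower. The lists were chosen with earlier results of these data known, so these counts do not test for an excess.

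**Figure D5:**
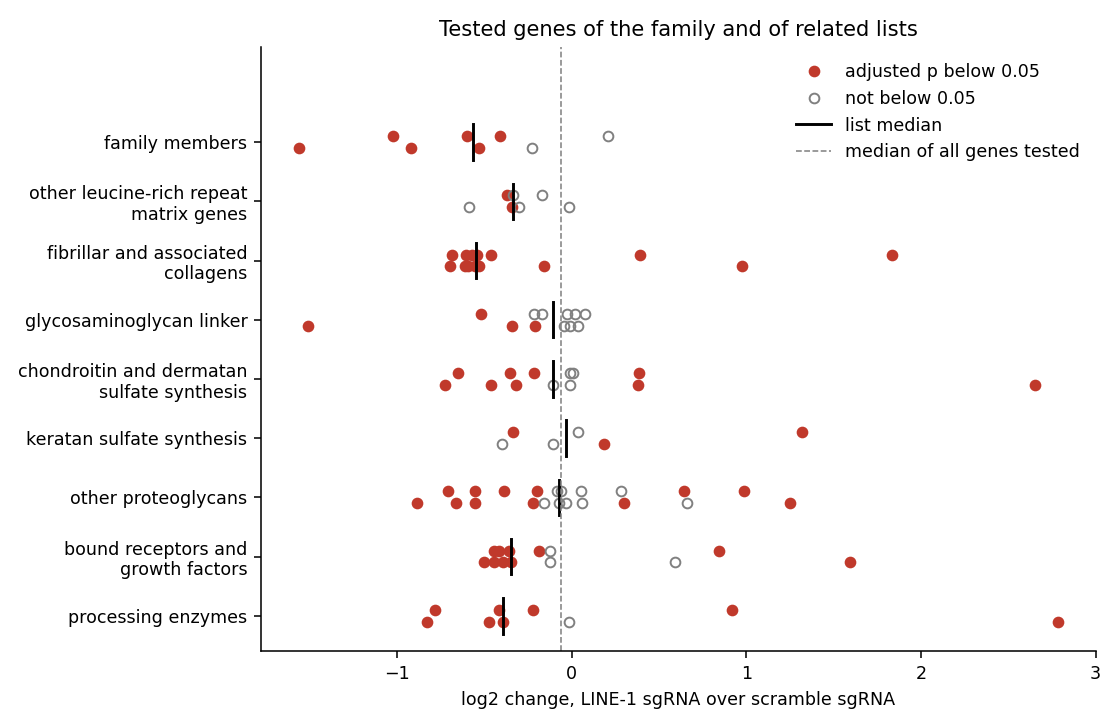
Log2 change, LINE-1 sgRNA over scramble sgRNA, of the tested family members and of 8 related gene lists, filled where the adjusted p was below 0.05, with the median of each list (bar) and of all tested genes (dashed line). The medians lie at -0.56 for the members and -0.55 for the collagens, and near the median of all genes for the chain-building enzymes.

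Levels of markers of other cell types ranged widely. The leukocyte list had a summed level of 846 to 913 normalized reads with LINE-1 sgRNA and 731 to 804 with scramble. Most of that sum came from Csf1r, with 468 to 564 normalized reads with LINE-1 sgRNA and 526 to 622 with scramble. Of 7 tested leukocyte markers 4 were higher, Cd68 and Ptprc among them, and 0 lower, and 0 of 8 were at 0 in every library. Over all tested genes 18.2% were higher and 25.4% lower. Ptprc was scarce and its groups overlapped, with 30.1, 27.7 and 5.25 normalized reads with LINE-1 sgRNA and 3.21 and 6.36 with scramble. The endothelial list had 107 to 153 with LINE-1 sgRNA and 99.6 to 111 with scramble, with 1 of 4 higher (Vwf) and 0 lower. The epithelial list had 73.3 to 89.9 with LINE-1 sgRNA and 78.2 to 93.2 with scramble, with 0 of 3 passing. The cartilage and tendon list had 4015 to 4266 with LINE-1 sgRNA and 4648 to 4681 with scramble, most of it from Sox9, which had 3053 to 3287 with LINE-1 sgRNA and 3737 to 3868 with scramble. Their part in the changes of the family was not tested.

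The genes most like 3 members in pattern were found by the root mean square difference of log2 profiles centred on each gene's mean, over 5 libraries and genes with a mean of at least 100. For Dcn they were Dkk3 (0.038), Rgs2 (0.043) and Med12l (0.044), out of 11455 genes. For Optc they were Igf1 (0.12), Gdf5 (0.18) and Kcnk10 (0.24), out of 11456. For Bgn they were Slc16a1 (0.0089), Gsn (0.013) and Ergic1 (0.015). Dkk3 had 1127 normalized reads with LINE-1 sgRNA and 2101 with scramble on average, and Igf1 had 95.1 with LINE-1 sgRNA and 244 with scramble. Since likeness to a member that is lower was the rule, the direction and size of their changes are fixed by that choice.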

How the data were processed

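RNA-seq of 5 NIH3T3 libraries was analysed, 3 with LINE-1 sgRNA and 2 with scramble sgRNA, grouped and numbered by their titles. The deposited tables hold a normalized signal that the authors call normalized counts. Per the labels' protocols, total RNA was extracted with the RNeasy kit and libraries were made with NEBNext Ultra II. DESeq2, SAMtools 1.9, bedtools 2.27.1, the aligners Bowtie2 2.2.9 and STAR 2.5.3a, and builds GRCm38 and mm10 are listed in the submitters' processing notes, without roles. How reads were counted, and whether by strand, is not stated there or in the labels. Dividing each library by its value for 1 read gave whole numbers for 100% of values, with a tolerance of 0.0001, and these are the recovered reads.

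Genes with a mean of at least 10 were fitted together as log2 of the value plus 1, by limma 3.58.1 with a variance trend in R 4.3.3, without a block and two-sided. The fit was tested on simulated data, where the share of its calls that were false came out above the threshold. The simulation changed far fewer genes than were called here and used the same dispersion for every gene. The share of false calls may therefore differ in these data. Fold changes on the scale of log2 of the value plus 1 understate changes of low genes. On recovered reads, edgeR 4.0.16 called 3039 genes higher and 2583 lower, and DESeq2 1.42.0 called 2808 and 2430; limma called 2606 and 3637. GENCODE release M 21 gave 1 position for 21158 of 21259 symbols. The members and gene lists were chosen with earlier results of these data known.

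Named genes are all 10 members, the called genes within 500 kb, for each list up to 4 called genes with the smallest p plus up to 3 called against the list's direction, and the 3 most alike profiles for Dcn, Optc and Bgn. Omd, Ecm2, Xylt2, Sox9, Ccer1 and the named leukocyte and endothelial markers were chosen after their values were seen. Promoter windows are RefSeq's, for 8 members; Dcn and Lum had no entry used here. Among the named list genes and the markers, 1 gene each is not reported here. The table of endogenous retrovirus loci was not used.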

Additional observations from a re-analysis of the deposited data

How the results depend on the processing

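The alternatives were pseudocounts of 0.5 and 8, no filter or a mean of at least 50, TMM rescaling, equal table totals, no variance trend, edgeR, DESeq2, a replicate block and each library left out. The number of members called lower was 5 or 6 of the tested members under all of these and the number called higher was 0; only Prelp lost its call. Optc ranged from -1.65 to -1.41, Lum from -1.06 to -0.94 and Dcn from -1.01 to -0.83. The small adjusted p-values depended on the variance trend. In limma without it they were 0.0031 for Dcn, 5.3e-04 for Lum, 0.0018 for Optc, 0.003 for Ogn and 0.0095 for Bgn. With the replicate number as a block, 6 members passed as lower, and calls over all genes were 2667 higher and 3906 lower. Same-numbered libraries had correlations of deviations of -0.0080 and 0.066. With 2 scramble libraries the deviations of 1 mirror those of the other, so these values cannot decide whether equal numbers share a batch. Among genes within 500 kb, 5 were higher with a mean of at least 50, where fewer genes were tested, and 8 were lower with table totals. Of the 33 named list genes, B3gnt2, Chst5, Chst7, Col5a3, Slc35b2 and Xylt1 lost their call under at least 1 alternative. Over all genes 3637 were lower as reported, against 2332 without the variance trend and 2136 with table totals. Table totals rescale all genes of a library alike, and the median change over all genes was 0.02 with them, against -0.06 as reported. Which scaling is right, and why fewer genes passed without the trend, were not tested. The scramble group has 2 libraries, Kera and Epyc had no read, and Fmod had 24 to 59 reads a library.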
